A study of Sus scrofa with 4 samples.

Results

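The genes described here code for the acid pump, ion transporters and secreted enzymes with which osteoclasts dissolve bone. They were chosen by name, as 9 symbols: TCIRG1 and ATP6V0D2, CLCN7 and OSTM1, SLC9B2 and CA2, and CTSK, ACP5 and MMP9. Of these 9 symbols, 8 were found among the 20648 genes of the count matrices. CA2, a carbonic anhydrase, matched no row by symbol and was not analysed here. The genes were followed over cell classes defined by other markers, and between libraries of 2 treatment groups.

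Single cells of regenerated bone from Bama mini-pigs, a small pig breed, were captured in droplets at an age of 8 months. One group received a peptide called 1797 and the other a control peptide, with 2 libraries each, and the labels give neither a dose nor a time after treatment. Strain, age, tissue and the collagenase digestion with red cell lysis were shared by all libraries. Other controls of the series were not analysed here. Nothing in the labels says whether each library is a different animal, so p-values measure only the spread between these libraries, which may be technical.

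An osteoclast is a large cell with many nuclei, formed by fusion of precursors of the monocyte and macrophage lineage. It seals off a patch of bone and pumps protons into the gap through a vacuolar-type proton pump (V-ATPase) in its ruffled border, while chloride follows through a channel-like exchanger. The acid dissolves the mineral, and enzymes released into the same space digest the collagen that is laid bare. In regenerating bone the same machinery takes part in replacing the first woven bone by ordered bone.

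The pump is represented by TCIRG1, its a3 membrane subunit (chr2:4844627-4860562 on Sscrofa11.1), and by ATP6V0D2, the d2 subunit, which also takes part in cell fusion (chr4:50694188-50749373). Chloride moves through CLCN7 (chr3:40397807-40420960), and OSTM1 (chr1:74139326-74181165) is the small membrane protein that keeps CLCN7 stable. SLC9B2 (chr8:117996777-118049430) is a sodium-proton antiporter that is induced as osteoclasts form. CTSK (chr4:98389459-98404969) is cathepsin K, the main collagen-cleaving protease of osteoclasts. ACP5 (chr2:70206159-70209855) is tartrate-resistant acid phosphatase, the classical histological stain of these cells, and MMP9 (chr17:48179690-48186782) is a gelatinase that is also stored in neutrophil granules. The intervals are whole genes in the RefSeq table of the same build. Values are UMI counts (unique molecules) of 3′ ends, given as counts per 1000000 UMIs of the class in a library (CPM), so they do not grow with transcript length.

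The 4 libraries held 87844389 to 98758412 UMIs, and 11469 to 12732 cells each passed the filters, 49122 in all. Median depth was 3156.5 to 5345 UMIs per cell. Pairs of libraries shared 34 to 45 of their kept barcodes. Clustering without the 8 genes gave 17 classes named by their markers, among them an osteoclast-like class of 215 cells, 43 and 96 in 1797 libraries 1 and 2 and 29 and 47 in control libraries 1 and 2. This class was named from a list of 10 osteoclast markers, none of them among the 8 genes, and 9 of the 10 were raised in it. The markers defined the class, so their levels are not an independent check of its name. NFATC1, the master transcription factor of osteoclasts and a marker of that list, was present in 96.3% of its cells. The integrin chain ITGB3 was present in 95.8%, the fusion receptor DCSTAMP in 90.2% and the calcitonin receptor CALCR in 33.0%. T cell marker CD3E stood at 8.34 CPM and neutrophil marker S100A8 at 30.2 CPM there.

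A pair of further clusters carried the genes and keep gene names here, since their markers did not allow a type. A cluster of 582 cells had NFATC1, DCSTAMP and 4 other osteoclast markers, lacked CALCR, OCSTAMP and SIGLEC15 among its raised genes, and was cycling, with TOP2A in 55.2% of cells. It is called the NFATC1+ DCSTAMP+ cluster. A cluster of 1660 cells had a median of only 894 UMIs, against 33037 in osteoclast-like cells. It had CRYAB, FABP5 and LGALS3 among its leading genes and is called the CRYAB+ FABP5+ cluster. Its 10 osteoclast markers summed to 1887 and 1751 CPM with peptide 1797 against 1241 and 2187 with the control peptide. The sums were 1618 and 1537 against 1234 and 1711 in the NFATC1+ DCSTAMP+ cluster. CALCR, OCSTAMP and SIGLEC15 were at 55.8, 7.38 and 25.8 CPM, against 1.33, 0.927 and 9.76 in the NFATC1+ DCSTAMP+ cluster. NFATC1 and ITGB3 were lower, at 96.9 and 37.4 against 397 and 259. A class name ending in -like below says only which markers its clusters carry.

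The osteoclast-like cells made up 0.438% of all cells and 1.87% of all UMIs, and they held 37.3% of the UMIs of the 8 genes. The share was 32.0% and 45.0% with peptide 1797 against 18.2% and 41.5% with the control peptide. Control library 1 was thus the lowest and the groups overlapped. The NFATC1+ DCSTAMP+ cluster held a further 11.6%, neutrophil-like cells 9.19%, macrophage-like cells 8.52% and stromal or osteoblast-like cells 5.35%. Their shares of all UMIs were 6.31%, 7.905%, 5.08% and 5.465%, in that order. By gene, the osteoclast-like share ran from 58.7% for SLC9B2, 54.6% for ACP5 and 53.3% for ATP6V0D2 down to 10.1% for CLCN7 and 9.39% for OSTM1. These levels describe clusters and are not tested, because the classes were drawn from the same cells. They also depend on where the class ends. It held 215 cells with another seed or at resolution 2.0 as well, but 303 at resolution 0.5, 324 with a stricter cell filter, 375 with the 8 genes clustered on and 381 with doublets kept. In pooled cells CTSK was then at 3638 CPM as reported and at 1780 with doublets kept, the lowest of these settings. ACP5 went from 4237 to 2244 and MMP9 from 1772 to 909 in the same setting, ATP6V0D2 from 2836 to 1925 and SLC9B2 from 1597 to 952, whereas TCIRG1 went from 309.5 to 260.9 and CLCN7 from 298.05 to 219.8.

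Among the pump genes, ATP6V0D2 had 2925 and 2835 CPM in osteoclast-like cells with peptide 1797, against 2411 and 2946 with the control peptide (mean 2779 ± 250.4, SD, n = 4). The CRYAB+ FABP5+ cluster followed at 591.0 ± 78.8 and the NFATC1+ DCSTAMP+ cluster at 476.3 ± 75.2. Every osteoclast-like library lay above every library of the next class, while those next 2 clusters overlapped each other. Macrophage-like cells had 72.4 ± 47.0 CPM, and T cell-like cells 7.20 ± 2.27. TCIRG1 was flatter, at 313.9 ± 13.3 CPM in osteoclast-like cells, 148.0 ± 29.3 in the NFATC1+ DCSTAMP+ cluster and 69.7 ± 17.5 in macrophage-like cells. The first 3 classes in that order did not overlap, and monocyte-like cells (60.2 ± 10.8) overlapped macrophage-like cells. In T cell-like cells it was still at 7.73 ± 1.34 CPM.

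CLCN7 and OSTM1, the chloride exchanger and its partner, were the least restricted. CLCN7 had 294.2 ± 33.5 CPM in osteoclast-like cells, then 110.3 ± 8.05 in the NFATC1+ DCSTAMP+ cluster, 90.6 ± 15.6 in B cell-like cells and 81.6 ± 5.31 in macrophage-like cells. T cell-like cells alone held 19.6% of all CLCN7 UMIs and B cell-like cells 18.97%, more than the 10.1% in osteoclast-like cells. Of the UMIs of all genes, these classes held 21.1%, 11.3% and 1.87%, so the T cell-like share of CLCN7 was no larger than their share of all UMIs. OSTM1 had 186.4 ± 53.4 CPM in osteoclast-like cells and 92.9 ± 19.8 in macrophage-like cells, and these did not overlap. SLC9B2 showed the sharpest step of the transporters, from 1768 ± 644.1 CPM in osteoclast-like cells to 166.0 ± 60.2 in the NFATC1+ DCSTAMP+ cluster and 35.9 ± 25.1 in macrophage-like cells.

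Of the enzymes, CTSK stood at 4097 and 2696 CPM in osteoclast-like cells with peptide 1797, against 565 and 6408 with the control peptide. The lowest and the highest value were both control libraries. The CRYAB+ FABP5+ cluster (2878 ± 946.1) overlapped osteoclast-like cells, but 13 of its 1660 cells held 50% of its CTSK UMIs, 17 that share of ACP5 and 9 that of MMP9, against 97 for ATP6V0D2. Stromal or osteoblast-like cells followed at 473.9 ± 227.8 CPM with 16.2% of all CTSK UMIs, and control library 1 of the osteoclast-like cells lay inside their range too. Control library 1 was also the lowest of the 4 in CTSK in the CRYAB+ FABP5+ cluster (1781 CPM), in stromal or osteoblast-like cells (217 CPM) and in the NFATC1+ DCSTAMP+ cluster (31.5 CPM).

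ACP5 was at 4590 and 3977 CPM in osteoclast-like cells with peptide 1797, against 2626 and 5137 with the control peptide, again with control library 1 lowest and control library 2 highest. It overlapped the CRYAB+ FABP5+ cluster (1556 ± 1116), which itself ran from 351 to 2988 CPM. MMP9 was at 1751 and 1307 CPM against 553 and 3221. Neutrophil-like cells held more MMP9 in sum (37.0% of its UMIs) than osteoclast-like cells (27.3%), at 435.1 ± 360.2 CPM. Control library 2 gave 10528 of their 16152 MMP9 UMIs. In 1797 library 1 osteoclast-like cells held more (2393 UMIs against 849). In 1797 library 2 (4024 against 4290) and control library 1 (380 against 485) they held somewhat fewer. Most MMP9 UMIs of neutrophil-like cells came from a single cluster of 1855 cells with the granule genes LTF, MMP8 and LCN2. It was at 1655 CPM, close to the 1772 CPM of the pooled osteoclast-like cells.

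**Figure D1:**
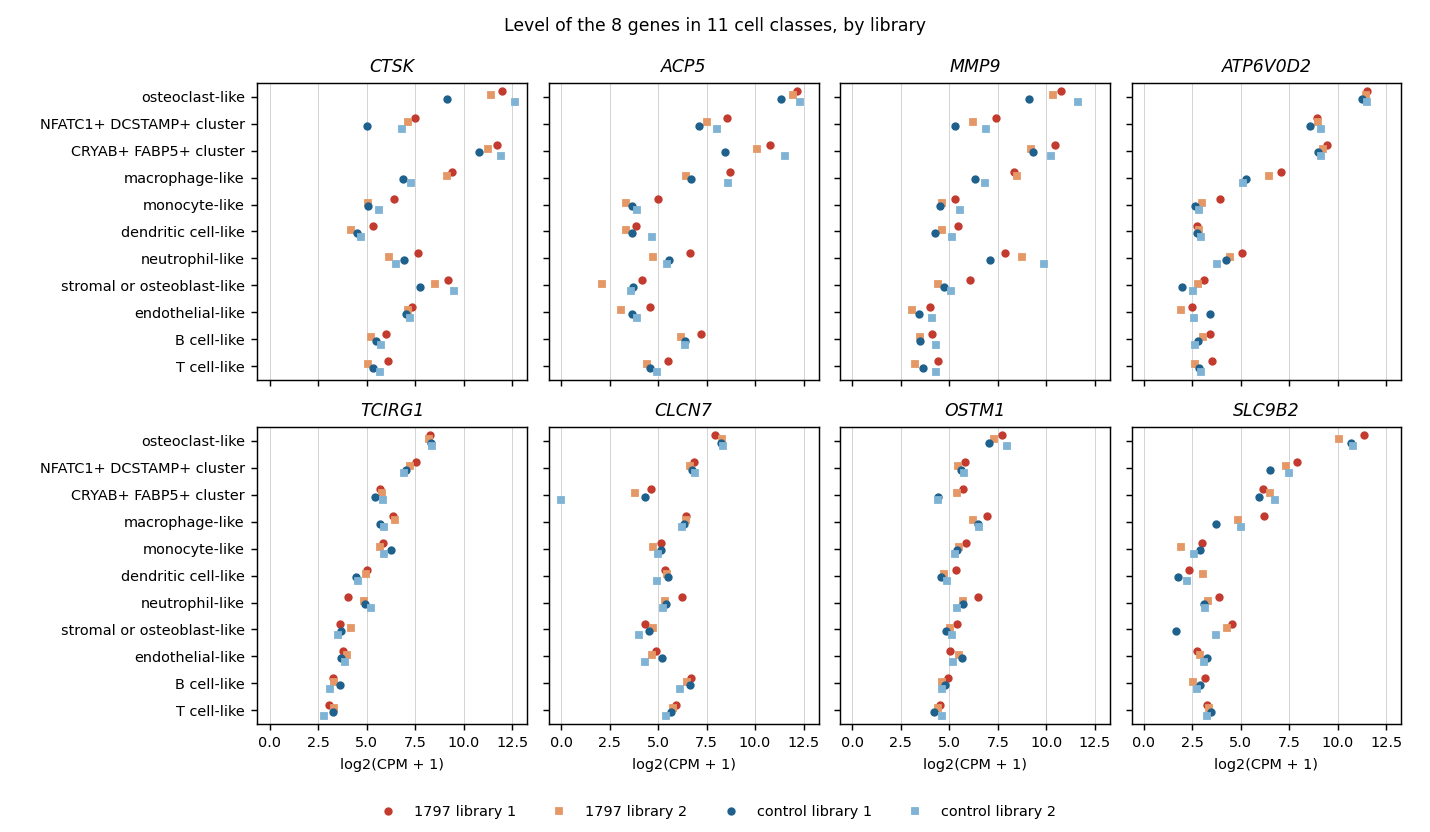
Level of the 8 genes, as log2(CPM + 1), in 11 cell classes, with a point for each library (red and orange, peptide 1797; dark and light blue, control peptide). The mean over libraries is highest in osteoclast-like cells for each of the 8 genes, and CTSK and MMP9 of control library 1 lie far to the left there, at 565 and 553 CPM.

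Within the osteoclast-like cells, ATP6V0D2 was missing from 2 of 215 cells, ACP5 from 5, SLC9B2 from 7, TCIRG1 from 12, CLCN7 from 15, MMP9 from 19, CTSK from 26 and OSTM1 from 36. The median cell carried 94 ACP5, 85 ATP6V0D2, 33 CTSK, 30 SLC9B2 and 24 MMP9 UMIs, and 9 TCIRG1, 8 CLCN7 and 4 OSTM1 UMIs. CTSK was the most unequal between libraries, with medians of 61 and 26 UMIs with peptide 1797 against 1 and 100 with the control peptide. TCIRG1 had medians of 9 and 9 against 8 and 10. CTSK and MMP9 were also concentrated in fewer cells than the other 6 genes. A total of 20 osteoclast-like cells held 50% of the CTSK UMIs of the class and 17 cells 50% of the MMP9 UMIs, against 35 for OSTM1 and for SLC9B2, 37 for ACP5, 54 for CLCN7, 56 for ATP6V0D2 and 58 for TCIRG1.

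After each cell was thinned to 1000 UMIs, 72.5% of 211 osteoclast-like cells carried 4 or more of the 8 genes, with 83.7% and 67.7% with peptide 1797 against 50% and 85.1% with the control peptide. The share was 7.06% in the CRYAB+ FABP5+ cluster, 3.27% in the NFATC1+ DCSTAMP+ cluster, 0.861% in macrophage-like cells and 0.030% in T cell-like cells. Thinned shares cover only cells that reached 1000 UMIs. These were 708 of 1660 cells of the CRYAB+ FABP5+ cluster and 1277 of 2216 macrophage-like cells. T cell-like cells, which are not known for CTSK, serve as a reference for UMIs from free RNA, whose amount was not estimated. At the same 1000 UMIs, 4.95% of them had a CTSK UMI (26.2% unthinned, median depth 7170 UMIs), against 62.6% of osteoclast-like cells (87.9% unthinned). Thinned CTSK shares were 43.9% in the CRYAB+ FABP5+ cluster, 11.4% in macrophage-like cells and 7.39% in the NFATC1+ DCSTAMP+ cluster. CLCN7 is widely expressed, so its thinned share of 5.41% in T cell-like cells (28.7% unthinned), beside 25.6% in osteoclast-like cells (93.0% unthinned), is not a background level.

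Across single osteoclast-like cells, the enzymes varied together more than the pump genes TCIRG1 and ATP6V0D2 did. Pearson's r of the log values within libraries was 0.494 between ACP5 and MMP9, 0.456 between CTSK and MMP9 and 0.395 between CTSK and ACP5 over 215 cells. TCIRG1 and ATP6V0D2 gave 0.145, and CLCN7 and OSTM1, which act as a complex, gave 0.095. OSTM1, however, gave 0.367 with MMP9, 0.342 with CTSK and 0.325 with ACP5, close to the lowest enzyme pair. TCIRG1, CLCN7 and OSTM1 had medians of only 9, 8 and 4 UMIs per cell, and the part of counting noise in their r was not tested. These are descriptions over cells that share libraries and depth. Over the 17 named classes, the closest pairs were ATP6V0D2 with SLC9B2 (r = 0.91) and ACP5 with ATP6V0D2 (0.906), and the classes share the same 4 libraries.

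Among 12443 other genes, the 3 with the most similar profile over the 17 classes were taken for each gene, and each of them was highest in osteoclast-like cells. ATP6V0D2 was closest to CALCR (r = 0.96), OCSTAMP (0.95) and DCSTAMP (0.95), the last 2 being receptors needed for cell fusion. ACP5 was closest to OCSTAMP (0.93), DCSTAMP (0.93) and SIGLEC15 (0.91), and SLC9B2 to RIMBP2 (0.96), OCSTAMP (0.94) and TPGS2 (0.93). CALCR, OCSTAMP, DCSTAMP and SIGLEC15 were on the marker list that named the osteoclast-like class. Their peak in that class, and their r with genes that peak there, are therefore not an independent finding. CTSK was closest to DGKI (0.92), CADPS (0.90) and RPS19BP1 (0.90), and MMP9 to GGT1 (0.88), PPM1H (0.83) and FGGY (0.82). TCIRG1 was closest to the pump genes ATP6AP1 (0.93) and ATP6V1C1 (0.92) and to SLC18A1 (0.91). OSTM1 was closest to RNASEK (0.91), ESRRA (0.88) and the pump accessory gene ATP6AP2 (0.87), and CLCN7 to WDR91 (0.88), SERPINF2 (0.88) and TNPO3 (0.86).

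The rest of the resorption pathway was read from 7 gene lists, as the number of genes whose CPM was higher, or lower, in osteoclast-like than in macrophage-like cells in all 4 libraries. The same counts over all genes are not given here, so these counts do not show whether a list departs from other genes. Median depth also differed, at 33037 UMIs in osteoclast-like and 1298 in macrophage-like cells. Of the 18 other V-ATPase subunits, 13 were higher and 2 lower. ATP6V1B2, part of the catalytic head, had 1205 CPM in pooled osteoclast-like cells against 220 in macrophage-like cells, and ATP6V1A, the catalytic subunit, 377 against 72.8. ATP6V0D1, the ubiquitous relative of ATP6V0D2, was lower (38.3 against 45.1), as was ATP6V0A1 (21.1 against 55.8). The kidney forms ATP6V1B1 and ATP6V0A4 were at 0 and 0.15 CPM.

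Among 14 ion and pH transporters found, 3 were higher and 4 lower. The bicarbonate exchanger SLC4A2, which clears base from the osteoclast while acid is pumped out, had 144 CPM against 16.3. SLC9B1, a paralog of SLC9B2, had 265 against 13.3, and whether reads were shared between the paralogs was not tested. Of 16 trafficking genes, 4 were higher and 5 lower. SNX10 (1260 against 310 CPM) and PLEKHM1 (301 against 41.9), both known from osteopetrosis, were among the higher ones, and LAMP1 (45.9 against 573) among the lower.

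Other proteases went the opposite way, with 2 of 18 higher and 12 lower. Cathepsin L (CTSL) had 4.32 CPM in osteoclast-like and 201 in macrophage-like cells, cathepsin Z (CTSZ) 52.6 against 1240 and legumain (LGMN) 61.2 against 1076. MMP14, a membrane collagenase, was higher (128 against 53.8). MMP13, another collagenase, was at 8.19 CPM in osteoclast-like cells and 2176 in stromal or osteoblast-like cells. Of 10 protease inhibitors, 1 was higher (TIMP2, 707 against 451) and 6 lower, with the cathepsin inhibitor CST3 at 2175 against 12573. Of 12 phosphatases and hydrolases, 5 were higher and 4 lower, and of 16 osteoclast identity genes, some of which marked the class, 12 were higher and 2 lower.

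**Figure D2:**
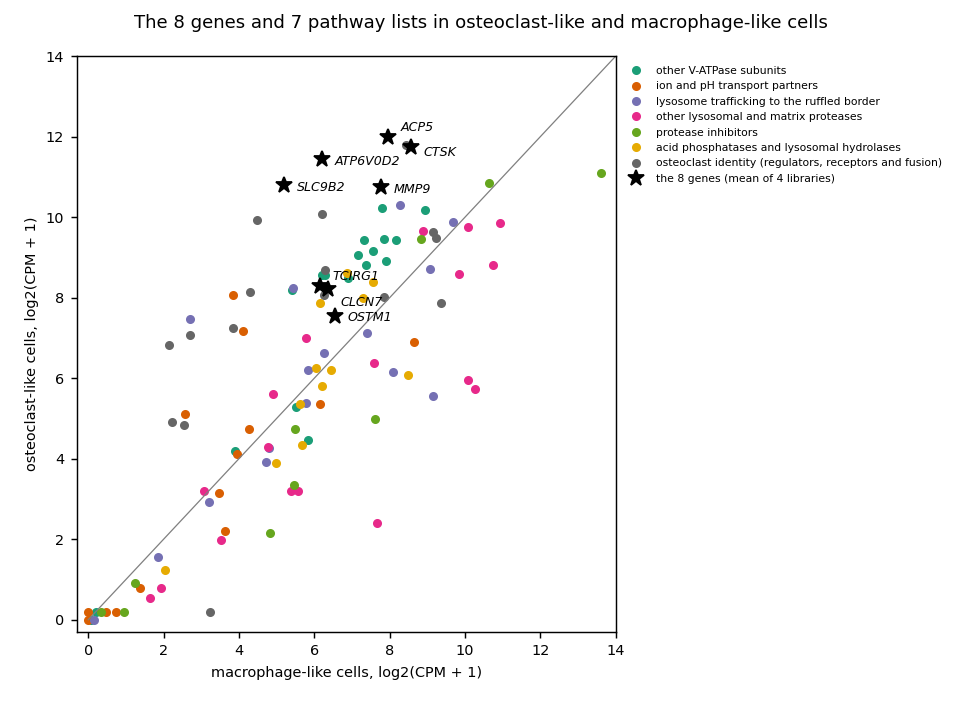
Level in osteoclast-like cells (vertical) against macrophage-like cells (horizontal), both as log2(CPM + 1), for the 8 genes (stars, mean of 4 libraries) and the genes of 7 pathway lists (dots, pooled libraries), with the line of equal level. All 8 stars lie above the line. In all 4 libraries 13 of 18 other V-ATPase subunits were higher in osteoclast-like cells and 12 of 18 other proteases lower. The same counts over all genes are not given.

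Whether peptide 1797 changed these genes was first read from the sum of all cells, where fewer cells of a type and less RNA per cell cannot be told apart. SLC9B2 had 70.9 and 63.1 CPM with peptide 1797 against 25.7 and 44.8 with the control peptide. ATP6V0D2 had 97.4 and 172 against 49.5 and 76.3, and ACP5 188 and 187 against 64.9 and 141. Both 1797 libraries lay above both controls for these 3 genes. They also did so by narrower margins for TCIRG1 (32.7 and 52.6 against 31.0 and 31.4), CLCN7 (58.2 and 65.4 against 56.3 and 40.9) and OSTM1 (42.6 and 38.3 against 30.8 and 36.7). CTSK (269 and 201 against 72.9 and 256) and MMP9 (104 and 138 against 34.5 and 203) overlapped, with control library 1 lowest.

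In this sum the groups did not overlap, 1797 being higher, for 6 of 8 genes, beside 12.8% of all 16652 genes tested, and the log2 fold change was above 0 for 8 of 8, beside 47.5% of all genes. The median log2 fold change of the 8 genes was 0.475, against -0.016 over all genes. None passed the edgeR quasi-likelihood test at an adjusted p of 0.05, and neither did any other gene (0% called); DESeq2 called 19 genes, 0.114% of all, and none of the 8. At an unadjusted p under 0.05 edgeR gave 265 genes (1.59%), SLC9B2 among them (log2 fold change 0.91 ± 0.31, SE). Without control library 2 the median was 1.415 and without control library 1 it was 0.434, with 6 of 8 above 0. Summed markers of osteoclasts moved with these genes, at 457 and 599 CPM with peptide 1797 against 327 and 383 with the control peptide (4 of 10 with both 1797 libraries above), and macrophage markers stood at 668 and 708 against 546 and 524. T cell markers (622 and 584 against 1046 and 659) and NK or cytotoxic T markers (605 and 527 against 1218 and 746) were lower in both 1797 libraries, as were plasma cell markers (239 and 277 against 356 and 454), and chondrocyte markers were higher (756 and 334 against 29.4 and 192). Their part in the result was not tested. Without osteoclast-like cells in the sum the median was 0.46, and without those and the 2 clusters named by genes 0.385.

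Of the 7 pathway lists, 6 had most of their tested genes above 0 in the sum of all cells. Over all 16652 genes tested there, 47.5% were above 0 and 12.8% had both 1797 libraries above both controls. Of 18 other V-ATPase subunits 16 had a log2 fold change above 0 (median 0.337), and in 11 both 1797 libraries were higher than both controls. Of 12 phosphatases and hydrolases 11 were above 0 (median 0.3), and the groups did not overlap, 1797 being higher, in 6. None was called by edgeR. ATP6V1A had 32.1 and 42.7 CPM against 20.5 and 23.7, ATP6V1B2 122 and 153 against 72.1 and 93.3, and the lysosomal galactosidase GLB1 65.8 and 55.4 against 42.1 and 39.4. HEXA (76.7 and 67.2 against 46.8 and 54.7) and ACP2 (9.57 and 10.4 against 6.72 and 6.93) also lay apart. ATP6V0A2 went the other way, at 22.6 and 32.7 against 51.5 and 39.4.

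Of 16 osteoclast identity genes, 14 were above 0 in the sum, with NFATC1 at 180 and 181 CPM against 130 and 110, ITGB3 at 61.4 and 73.0 against 26.4 and 47.7 and ITGAV at 395 and 392 against 182 and 351. OCSTAMP was at 0.892 and 1.64 against 0.339 and 0.865. Of 16 trafficking genes 12 were above 0, with VPS35, a retromer subunit, at 37.6 and 46.9 against 28.1 and 31.7, TFEB at 47.4 and 46.9 against 38.0 and 33.2, RAB38 at 7.31 and 9.32 against 5.92 and 6.36, and RAB27A lower in 1797 at 92.7 and 78.3 against 104 and 106. Other proteases had 13 of 18 above 0, among them CTSB (386 and 461 against 317 and 314), CTSH (197 and 230 against 152 and 188), CTSA (61.1 and 55.3 against 46.4 and 48.7) and CTSC (384 and 467 against 361 and 369). Of 10 inhibitors 6 were above 0, with CSTB at 616 and 662 against 493 and 476 and CST3 at 3020 and 3254 against 2618 and 2553. Of 13 transporters tested only 5 were above 0 (median -0.261), and SLC4A4 (38.4 and 28.5 against 38.9 and 41.3), CLCN3 (40.0 and 34.7 against 54.0 and 41.5) and CA3 (2.93 and 0.755 against 7.84 and 4.06) were lower in both 1797 libraries, CLCN6 higher (51.8 and 49.8 against 42.2 and 23.9).

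**Figure D3:**
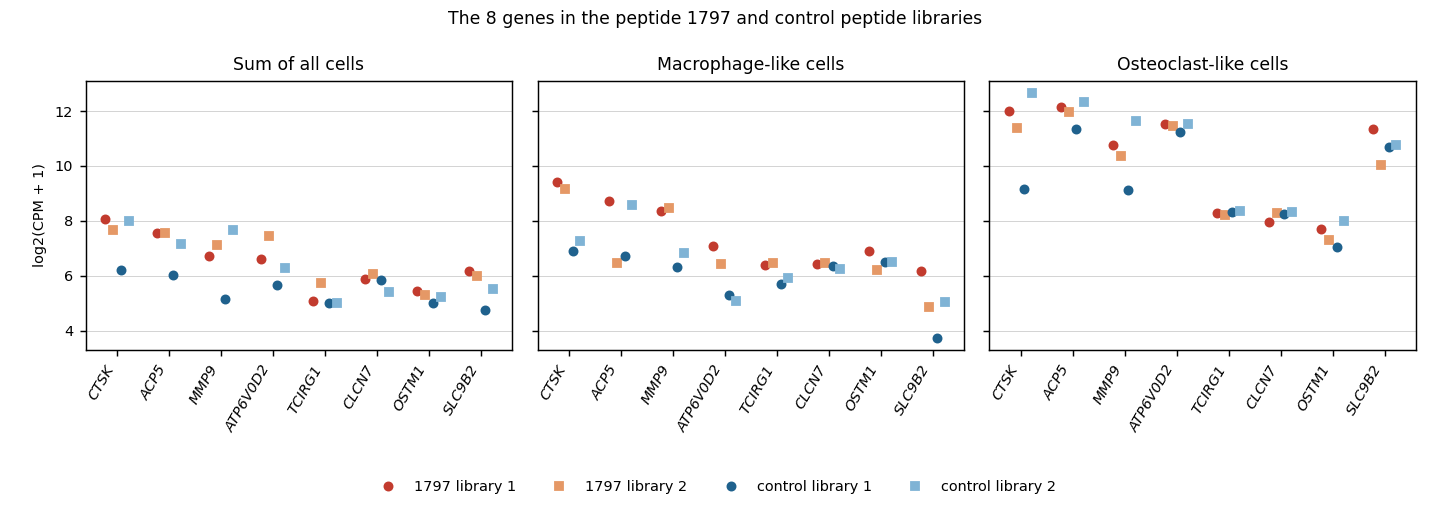
The 8 genes in each library, as log2(CPM + 1), in the sum of all cells, in macrophage-like cells and in osteoclast-like cells (red and orange, peptide 1797; blue, control peptide). Both 1797 libraries lie above both controls for 6 genes in the sum and 5 in macrophage-like cells, and for none in osteoclast-like cells.

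The osteoclast-like cells themselves did not show this order. Of the 8 genes 3 had a log2 fold change above 0 (49% of all genes) and 5 below, with a median of -0.062 (all genes -0.009). None had both 1797 libraries higher than both controls, beside 15.7% of the 8729 genes tested, and 1, TCIRG1, had both lower, beside 17.5%. CTSK gave -0.04 ± 0.88, MMP9 -0.30 ± 0.68, ACP5 0.15 ± 0.36 and SLC9B2 0.11 ± 0.41 (log2, SE). For CTSK and MMP9 control libraries 1 and 2 held the lowest and the highest value. ATP6V0D2 gave 0.11 ± 0.25, TCIRG1 -0.09 ± 0.20 (310 and 297 CPM against 320 and 328, both 1797 libraries below) and CLCN7 -0.16 ± 0.22 (245 and 309 against 303 and 320). OSTM1 had 206 and 155 CPM against 132 and 252 (-0.11 ± 0.33), and SLC9B2 2615 and 1052 against 1652 and 1752.

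No gene was called in osteoclast-like cells by edgeR (0% of 8729), 467 (5.35%) had an unadjusted p under 0.05, none of the 8 among them, and DESeq2 called 11 genes (0.126%), none of the 8. With 1 library left out, the number of the 8 genes above 0 was 1 without control library 1, the lowest, and 6 without control library 2, the highest. Control library 1, with the low CTSK and MMP9, had the fewest osteoclast-like cells (29). Its osteoclast markers summed to 4865 CPM, the lowest of the 4 by a small margin (4895 and 5300 in the 1797 libraries, 5612 in control library 2). T cell markers in osteoclast-like cells summed to 17.6 and 17.6 CPM against 138 and 36.0, NK or cytotoxic T markers to 86.3 and 102 against 169 and 147, and stromal or osteoblast markers to 260 and 107 against 399 and 719. These 3 lists were lower in both 1797 libraries, as were the B cell and dendritic cell lists, and endothelial and plasma cell markers were higher. Cycling markers were higher too, at 109 and 92.9 CPM with peptide 1797 against 45.1 and 51.8 with the control peptide. Their part in the result was not tested.

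Among the list genes in osteoclast-like cells, CALCR was at 115 and 64.0 CPM with peptide 1797 against 170 and 267 with the control peptide (log2 fold change -1.31 ± 0.35, edgeR adjusted p = 0.833). SIGLEC15, a receptor of fusing osteoclasts, was at 83.4 and 101 against 121 and 155, and TNFRSF11A, the receptor of the osteoclast cytokine RANKL, at 295 and 219 against 306 and 323. NFATC1 was at 1167 and 1138 against 1026 and 895. These 3 receptors were lower and NFATC1 higher in both 1797 libraries, none of it past the test. Of 15 tested identity genes 6 had a log2 fold change above 0 and 9 below, and 3 with both 1797 libraries lower and 1 with both higher stand beside 17.5% and 15.7% of all genes. MMP13, high in stromal or osteoblast-like cells, was at 5.85 and 2.92 CPM against 11.6 and 18.96, with the stromal or osteoblast markers in the same order, and their part was not tested.

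Of 16 tested pump subunits 12 were above 0 in osteoclast-like cells (median 0.122), beside 49% of all genes. ATP6V0E1 was at 817 and 713 against 588 and 626 and ATP6V1F at 379 and 362 against 330 and 339. ATP6V0A2 was at 22.0 and 17.2 against 13.1 and 15.2 and ATP6V0A1 at 18.3 and 19.2 against 24.7 and 25.9. Trafficking genes had 4 of 14 above 0, with RAB38 at 113 and 171 against 218 and 229, RAB27A at 1.46 and 6.17 against 10.2 and 10.1, LAMP1 at 41.0 and 39.0 against 69.9 and 53.1, and LRRK1 at 20.5 and 21.8 against 17.5 and 9.48. Other proteases had 6 of 15 above 0, with LGMN at 67.3 and 40.0 against 84.4 and 87.2, ADAM8 at 60.003 and 49.4 against 32.0 and 41.1 and CTSC at 809 and 899 against 479 and 782. SLC9B1 was at 162 and 253 against 424 and 310 and CLCN5 at 7.32 and 8.77 against 7.28 and 6.95. Among hydrolases, 3 of 11 were above 0. MANBA (27.1 and 36.4 against 37.8 and 60.7), LIPA (49.0 and 58.2 against 59.7 and 99.2) and GAA (52.0 and 49.4 against 53.9 and 68.9) were lower in both 1797 libraries and ACP1 higher (73.9 and 84.2 against 71.3 and 58.8).

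With the class as reported, the number of osteoclast-like cells did not differ detectably either. They were 0.353% and 0.755% of cells with peptide 1797 against 0.228% and 0.410% with the control peptide. The groups overlapped, and the log2 ratio of shares was 0.80 ± 0.81 (SE; edgeR adjusted p = 0.996 over 19 classes). At resolution 0.5 the cells numbered 71 and 134 against 42 and 56, and with doublets kept 88 and 180 against 51 and 62. A stricter cell filter gave 84 and 126 against 66 and 48. Clustering on the genes followed here gave 87 and 177 against 50 and 61. In these settings both 1797 libraries lay above both controls. They did not at resolution 2.0 (44 and 96 against 27 and 48) or with another seed (46 and 95 against 28 and 46). Tests of these numbers are not given here. Macrophage-like cells were 3.97% and 3.50% against 5.22% and 5.43%, a log2 ratio of -0.51 ± 0.70 (adjusted p = 0.996). In the share test edgeR called none of the 19 classes, and 1, the chondrocyte-like class, had an unadjusted p under 0.05.

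In macrophage-like cells CTSK was at 676 and 567 CPM with peptide 1797 against 118 and 153 with the control peptide. MMP9 was at 326 and 351 against 78.1 and 112, ATP6V0D2 at 133 and 85.1 against 37.8 and 33.0, and TCIRG1 at 82.5 and 86.7 against 51.2 and 58.6. CLCN7 was at 84.8 and 86.3 against 81.2 and 74.3. These 5 genes had both 1797 libraries above both controls, beside 18.2% of the 11386 genes tested in the class. All 8 had a log2 fold change above 0, beside 48.7% of all genes, while ACP5 (423 and 87.1 against 104 and 383), OSTM1 (120 and 72.2 against 89.3 and 90.5) and SLC9B2 (71.4 and 28.3 against 12.4 and 31.5) overlapped.

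Other values of the class moved with the groups too. Its median depth was 1699.5 and 12162 UMIs per cell with peptide 1797 against 1471.5 and 838 with the control peptide. B cell markers in it summed to 394 and 402 CPM against 740 and 668, stromal or osteoblast markers to 514 and 306 against 658 and 937, and dendritic cell markers to 53.7 and 48.5 against 71.4 and 64.2. Monocyte markers (602 and 778 against 521 and 549.7) were higher in both 1797 libraries, whereas osteoclast markers (456 and 631 against 459 and 517) and macrophage markers (8781 and 6032 against 7655 and 11634) overlapped. Their part in the result was not tested.

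The log2 fold change was 2.24 ± 0.22 for CTSK, 1.89 ± 0.24 for MMP9, 1.66 ± 0.27 for ATP6V0D2 and 0.68 ± 0.21 for TCIRG1 (SE, n = 2 against 2 libraries). Their edgeR adjusted p values were 0.208, 0.269, 0.389 and 0.460. None of the 8 genes and no other gene was called by edgeR (0% of 11386). At an unadjusted p under 0.05 edgeR gave 1134 genes (9.96%), these 4 among them. DESeq2, which estimates the spread differently, called 101 genes (0.887%), CTSK (adjusted p = 4.0e-15), MMP9 (3.5e-08) and ATP6V0D2 (0.00017) among them. The call therefore depended on the tool, and edgeR without the filter on low counts also called 3 of the 8.

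The CTSK counts behind this gap came from very few cells. Of 2216 macrophage-like cells, 19 carried 20 or more CTSK UMIs and together held 82.4% of the CTSK UMIs of the class, and 3 cells held 50%. The 19 cells were 8 and 5 with peptide 1797 against 3 and 3 with the control peptide, and the highest cell carried 1415 CTSK UMIs in 1797 library 1 and 1387 in 1797 library 2, against 124 and 76 in the controls. The highest cell of the osteoclast-like class carried 1293. MMP9 was as concentrated, with 4 cells holding 50% of its UMIs, SLC9B2 with 5 and ATP6V0D2 with 6, whereas for ACP5 it took 67 cells, for TCIRG1 93, for CLCN7 116 and for OSTM1 123.

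In those 19 cells, chosen here by their CTSK count and so described without a test, the median depth was 32068 UMIs, against 1265 in the other 2197 macrophage-like cells. They had 3885 CPM of MMP9, 1081 of ATP6V0D2, 796 of ACP5 and 418 of SLC9B2, against 71.4, 29.6, 186 and 16.8 in the others. NFATC1 was present in 63.2% of them and DCSTAMP in 63.2%, against 20.4% and 4.96% in the others. The complement genes C1QA and C1QB, which mark macrophages, were present in 47.4% and 63.2% of them, against 83.9% and 87.6%. The other 2197 cells had 107 and 58.0 CPM of CTSK with peptide 1797 against 73.2 and 98.7 with the control peptide, a value bounded by the split itself. Of the other 4 genes that lay apart in the whole class, MMP9 (110 and 58.0 against 31.9 and 109) and CLCN7 (79.7 and 83.9 against 80.7 and 68.0) overlapped in these cells, while ATP6V0D2 (46.5 and 30.9 against 14.98 and 23.4) and TCIRG1 (67.0 and 74.1 against 50.002 and 59.5) lay apart.

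**Figure D4:**
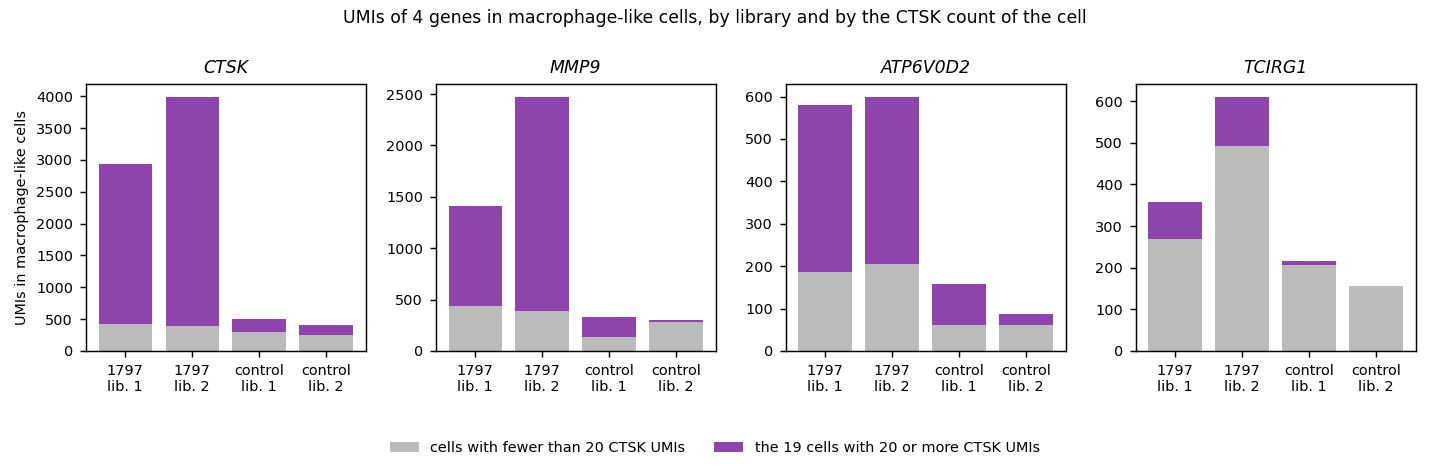
UMIs of CTSK, MMP9, ATP6V0D2 and TCIRG1 in the macrophage-like cells of each library (bars from 0), split into the 19 cells with 20 or more CTSK UMIs (purple) and the others (grey). The 8 and 5 such cells of the 1797 libraries hold 2501 of 2932 and 3604 of 3989 CTSK UMIs, whereas most TCIRG1 UMIs lie in the other cells.

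The share of macrophage-like cells with a UMI of each gene gave a similar picture. After thinning to 1000 UMIs, which 1277 of the 2216 cells reached, CTSK was found in 15.2% and 7.67% of cells with peptide 1797 against 10.4% and 13.8% with the control peptide. MMP9 was found in 10.8% and 5.83% against 5.54% and 4.17%, and ATP6V0D2 in 7.43% and 3.37% against 2.65% and 1.67%. The groups overlapped for CTSK, and for MMP9 and ATP6V0D2 both 1797 libraries lay above both controls by a small margin. In T cell-like cells the thinned shares were 7.50% and 3.64% against 3.88% and 5.21% for CTSK, and at most 2.02% in any library for MMP9 and 1.31% for ATP6V0D2.

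The gap also followed the borders of the class. A single sub-cluster of 631 cells held 89.2% of the CTSK UMIs of the class, at 892 and 1029 CPM with peptide 1797 against 90.9 and 114 with the control peptide, and in none of the other sub-clusters with cells in every library did both 1797 libraries lie above both controls. In control library 2, 332 of its 623 macrophage-like cells lay in another sub-cluster, to which the other libraries gave 13, 33 and 12 cells. Without the sub-clusters that came mostly from 1 library the class gave a median log2 fold change of 0.866 over the 8 genes, against 0.954 with them. At Leiden resolution 0.5 the log2 fold change of CTSK was -0.11 ± 0.38 and at resolution 2.0 it was 0.41 ± 0.61. The class then lost 296 and 74 of its cells, and 10 and 7 of the 19 cells lay in the NFATC1+ DCSTAMP+ cluster. It also gained cells, with 2497 in all at resolution 0.5 and 2288 at resolution 2.0. Of these, 522 and 18 came from the CRYAB+ FABP5+ cluster. The part of lost and gained cells in the change was not tested. With the 8 genes among those clustered on, 8 of the 19 cells joined the osteoclast-like class and CTSK gave -0.05 ± 0.40. TCIRG1 had a log2 fold change above 0 in each of these settings, from 0.32 to 0.69.

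**Figure D5:**
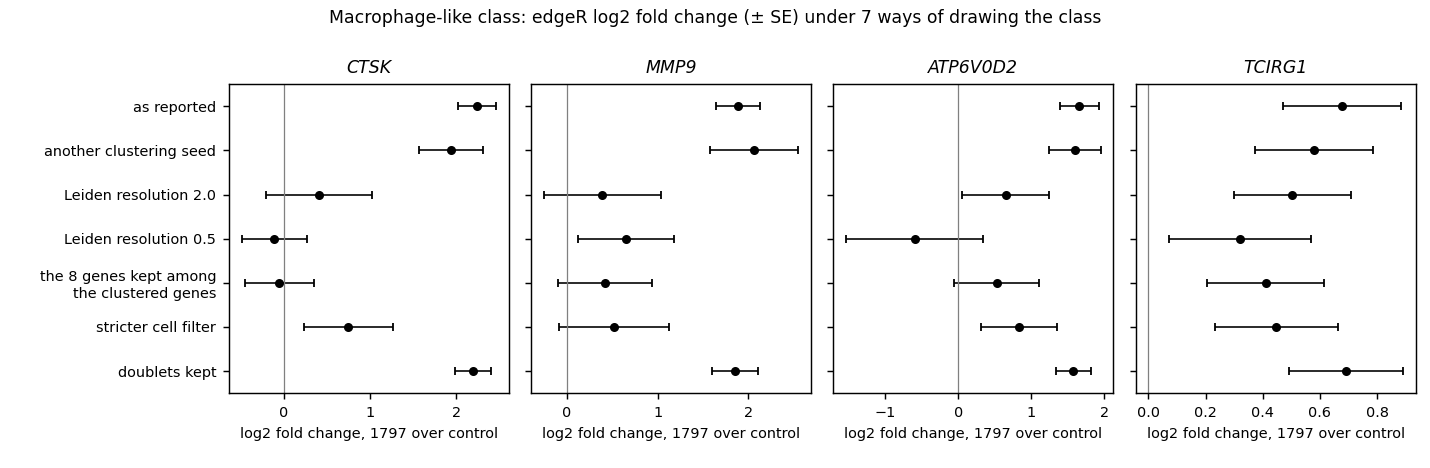
edgeR log2 fold change (1797 over control, point, with SE) of 4 genes in the macrophage-like class under 7 ways of drawing the class, with a line at 0. CTSK falls from 2.24 to -0.11 and ATP6V0D2 from 1.66 to -0.60 at resolution 0.5, MMP9 from 1.89 to 0.39 at resolution 2.0, and TCIRG1 stays between 0.32 and 0.69.

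Among list genes in macrophage-like cells, the inhibitor A2M was at 32.3 and 39.4 CPM with peptide 1797 against 10.9 and 13.9 with the control peptide (log2 fold change 1.59 ± 0.27, edgeR adjusted p = 0.406). GLB1 was at 226 and 95.8 against 64.5 and 72.1, ITGAV at 478 and 368 against 249 and 216, and OCSTAMP at 3.46 and 6.25 against 1.43 and 0.751. CSTB was at 1839 and 1760 against 1105 and 1543. JDP2, a factor of osteoclast formation, went the other way, at 59.4 and 49.3 against 98.8 and 146, as did FOS (491 and 574 against 813 and 940), TIMP3 (49.8 and 17.3 against 79.3 and 50.7) and PLAU (30.4 and 34.1 against 44.0 and 67.2).

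Of 16 pump subunits tested 12 were above 0 (median 0.287) in macrophage-like cells, beside 48.7% of all genes. Among them were ATP6V1A (97.9 and 75.9 against 51.9 and 56.7), ATP6V1H (101 and 80.8 against 53.1 and 63.8) and ATP6V1B2 (282 and 236 against 159 and 175). ATP6V0A1 was lower in both 1797 libraries, at 60.4 and 36.8 against 71.2 and 74.0. MITF, a transcription factor of lysosomal and osteoclast genes, was at 829 and 601 against 994 and 1090. Of 17 other proteases 8 were above 0 and 9 below, ADAM8 being at 33.9 and 29.1 against 25.7 and 25.9. Of the other genes that lay apart, VPS35, FAM20C, RAB27A, CLCN5 and SLC4A2 had log2 fold changes between -0.54 and 0.34. No list gene was called by edgeR in any of the 3 comparisons, and DESeq2 called 3, all in macrophage-like cells.

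In the NFATC1+ DCSTAMP+ cluster CTSK was at 179 and 138 CPM with peptide 1797 against 31.5 and 114 with the control peptide (1.17 ± 0.50), and TCIRG1 at 188 and 152 against 131 and 121 (0.44 ± 0.16, edgeR adjusted p = 0.715). These 2 of 8 genes had both 1797 libraries above both controls, beside 16% of 11047 genes, and ATP6V0D2 did not differ detectably (479 and 496 against 375 and 555, 0.10 ± 0.20). In the CRYAB+ FABP5+ cluster OSTM1 was at 50.7 and 40.7 against 20.5 and 20.2 (1.26 ± 0.41, adjusted p = 0.998) and ATP6V0D2 at 695 and 595 against 505 and 569, again 2 of 8 beside 10.6% of 5374 genes. The OSTM1 value there rests on 34 and 25 UMIs against 14 and 4. edgeR called none of the 8 genes and no other gene in either cluster (0%). At an unadjusted p under 0.05 there was 1 of 8 in each, beside 6.66% of all genes in the NFATC1+ DCSTAMP+ cluster and 3.65% in the CRYAB+ FABP5+ cluster, and DESeq2 called none of the 8, beside 0.181% and 0%.

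In the 12 other classes tested, edgeR called none of the 8 genes, and neither did DESeq2. Of all genes edgeR called 1.58% in plasma cell-like cells, 0.0112% in plasmacytoid dendritic cell-like cells and 0% in the other 10. List genes among those of plasma cell-like cells were CLCN6, NFATC1 and TFEB (edgeR adjusted p = 0.024, 0.035 and 0.046), all higher with peptide 1797. Only 33 plasma cell-like cells came from 1797 library 1. DESeq2 called 3.27% in plasma cell-like, 1.65% in monocyte-like, 0.368% in B cell-like, 0.289% in T cell-like, 0.237% in dendritic cell-like and 0.19% in plasmacytoid dendritic cell-like cells. It called 0.138% in endothelial-like, 0.115% in neutrophil-like, 0.111% in NK or cytotoxic T-like and 0.0317% in stromal or osteoblast-like cells, and 0% in erythroid-like and mast or basophil-like cells. At an unadjusted p under 0.05 in edgeR there was a single case among the 8 genes, ACP5 in plasma cell-like cells (67.0 and 47.9 CPM against 30.1 and 25.8), where 19.6% of all genes reached that level. The share of all genes at that level was 11% in monocyte-like, 6.99% in B cell-like, 5.81% in dendritic cell-like, 5.75% in plasmacytoid dendritic cell-like, 4.83% in T cell-like and 4.06% in endothelial-like cells. The remaining shares were 3.67% in NK or cytotoxic T-like, 2.43% in neutrophil-like, 2.18% in stromal or osteoblast-like, 1.84% in mast or basophil-like and 0.457% in erythroid-like cells. Neutrophil-like cells, the other main source of MMP9, had 232 and 430 CPM of it with peptide 1797 against 136 and 943 with the control peptide. Stromal or osteoblast-like cells, the other main source of CTSK, had 580 and 366 against 217 and 732. In both the control libraries lay on either side of the 1797 libraries.

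Whether the difference between the groups was itself larger in macrophage-like cells was tested with the class by group term of an edgeR fit with the library as a block. Against osteoclast-like cells, the 1797 effect on ATP6V0D2 was larger in macrophage-like cells by 1.49 ± 0.31 on the log2 scale, on MMP9 by 1.71 ± 0.56, on SLC9B2 by 1.21 ± 0.40 and on TCIRG1 by 0.74 ± 0.27. These 4 had an unadjusted p under 0.05, beside 5.84% of 11293 genes, and none of the 8 passed after adjustment (smallest edgeR adjusted p = 0.545, 0% of genes called). Against monocyte-like cells MMP9 (1.92 ± 0.35), CTSK (1.78 ± 0.38), TCIRG1 and SLC9B2 were at an unadjusted p under 0.05, beside 12.7% of genes, with a smallest adjusted p of 0.108 (0.0085% of genes called). Against neutrophil-like cells these were CTSK, MMP9 and TCIRG1, beside 5.24% of genes, with a smallest adjusted p of 0.928 (0% called). A difference of the effect between classes was thus not called for any of the 8 genes with all libraries and the filter on low counts, and these contrasts rest on the same borders of the macrophage-like class. Without the filter 8 such differences were called over the 3 contrasts, and 6 without control library 1.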

How the data were processed

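Droplet 3′ libraries of 4 samples, 2 with peptide 1797 and 2 with a control peptide, were deposited as matrices of UMI counts per gene and cell barcode. The submitters' processing notes name Cell Ranger 5.0.0 and Sscrofa11.1, and the file headers name software version 7.0.1. Barcodes with under 200 genes or 20% or more mitochondrial UMIs were removed, as were 1813 doublets called by Scrublet (expected rate 0.1), which left 49122 of 54060 barcodes. Clustering (scanpy 1.11.5) used 2000 variable genes without the 8 genes, 30 principal components, 15 neighbours and Leiden resolution 1.0. Myeloid clusters were clustered again. A cluster was named from at least 3 markers. The clustering again of mesenchymal clusters and the rule that parts the NFATC1+ DCSTAMP+ cluster from osteoclast-like cells were added after clusters were seen.

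UMI counts were summed per library and class, where a class had 20 or more cells in each library, and tested with edgeR 4.0.16 (R 4.3.3), the quasi-likelihood test with TMM scaling, the filter filterByExpr and Benjamini-Hochberg adjustment over all genes tested, at 0.05. DESeq2 1.42.0 was an alternative. A log2 fold change is 1797 over control, with its SE. Classes were compared by a class by group term with the library as a block, and class shares by edgeR on cell numbers. The tests were tested on simulated data. CPM is the count per 1000000 UMIs of that class and library, and for a gene at 0 the limit is 3 counts. Named list genes are those of a list with both 1797 libraries above, or below, both controls, by size of change, up to 4 a list; some of these are not reported here. The genes, markers and lists were chosen with earlier results of these data known.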

Additional observations from a re-analysis of the deposited data

How the results depend on the processing

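With all libraries edgeR called none of the 8 genes in any comparison, and of the values recomputed under the alternatives for the 12 results that answer a comparison, 121 kept their direction and call and 19 gained calls. DESeq2 called 19 genes in the sum of all cells, 101 in macrophage-like cells (3 of the 8) and 11 in osteoclast-like cells, and 3 list genes in these 3 comparisons. Without the filter on low counts edgeR called 200 genes in macrophage-like cells (3 of the 8), 193 in osteoclast-like cells, 5 list genes and 8 differences between classes. With 1 library left out, genes called ran from 0 to 36 in macrophage-like cells and 0 to 42 in osteoclast-like cells, list genes from 0 to 1, calls of the 8 genes in other classes from 0 to 1 and differences between classes from 0 to 6. With an arm of 1 library the lone sample is assumed to vary like the others. The cause was not tested.

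Single log2 fold changes that changed sign were as follows, and the cause was not tested. In the sum of all cells MMP9 was -0.17 with the stricter cell filter, -0.051 without osteoclast-like cells and -0.081 also without the 2 clusters named by genes. In macrophage-like cells at resolution 0.5 CTSK was -0.11, ATP6V0D2 -0.60, SLC9B2 -0.27 and SLC4A2 -0.10. ACP5 there was -0.005 at resolution 2.0, -0.031 with another seed and -0.16 with the 8 genes clustered on, where CTSK was -0.050, and OSTM1 was -0.013 with the stricter filter. In osteoclast-like cells with doublets kept ACP5 was -0.18, ATP6V0D2 -0.14, SLC9B2 -0.058, ATP6V0A2 -0.22 and LAMP1 0.12. At resolution 0.5 ACP5 was -0.063, SLC9B2 -0.0007, ATP6V0A2 -0.31 and LAMP1 0.17. With the 8 genes clustered on ACP5 was -0.22, ATP6V0D2 -0.17, SLC9B2 -0.066, ATP6V0A2 -0.22, LAMP1 0.41, LGMN 0.21 and CTSC -0.055. With the NFATC1+ DCSTAMP+ cluster joined, a choice made after seeing the data, ACP5 was -0.022, TCIRG1 0.20, ATP6V0A2 -0.076, LRRK1 -0.030 and CTSC -0.10. With another seed CTSK was 0.068 and LGMN 0.16, LAMP1 was 0.015 with the stricter filter, and CTSK was 0.017 without the filter on low counts, as ACP5 was 0.054 in the CRYAB+ FABP5+ cluster.

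Leaving out 1 library at a time gave these ranges. In the sum of all cells they were -0.73 to 1.81 for MMP9, -0.13 to 1.68 for CTSK, -0.018 to 0.81 for TCIRG1 and -0.012 to 0.41 for CTSC. In macrophage-like cells they were -1.39 to 1.34 for ACP5 and -0.22 to 0.43 for OSTM1. In osteoclast-like cells they were -0.90 to 2.59 for CTSK, -1.06 to 1.47 for MMP9, -0.24 to 0.71 for ACP5, -0.014 to 0.27 for ATP6V0D2, -0.34 to 0.017 for CLCN7, -0.47 to 0.45 for OSTM1 and -0.67 to 0.62 for SLC9B2. In the CRYAB+ FABP5+ cluster they were -0.32 to 0.81 for CTSK, -0.55 to 0.76 for MMP9, -0.95 to 2.14 for ACP5 and -0.32 to 0.50 for SLC9B2. In the NFATC1+ DCSTAMP+ cluster they were -0.052 to 1.05 for ACP5, -0.0048 to 1.68 for MMP9, -0.12 to 0.034 for CLCN7, -0.17 to 0.10 for OSTM1 and -0.15 to 0.41 for ATP6V0D2.

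The libraries share only replicate numbers. Same-numbered libraries deviated with r of -0.309 in the sum of all cells and -0.124 in stromal or osteoblast-like cells. The r was -0.005 in osteoclast-like and -0.049 in macrophage-like cells. It was 0.292 in neutrophil-like, 0.256 in mast or basophil-like and 0.201 in erythroid-like cells. Neutrophil-like cells were 17.8% and 39.9% of cells in 1797 libraries 1 and 2. In control libraries 1 and 2 they were 15.8% and 33.4%, so this share followed the replicate number. With the replicate number as a block edgeR called 0 of the 8 genes and 0 genes in the sum of all cells, macrophage-like and osteoclast-like cells, and CTSK, MMP9 and SLC9B2 in osteoclast-like cells were 0.79, 0.17 and -0.031, ACP5 -0.012 in macrophage-like cells and 0.53 in the CRYAB+ FABP5+ cluster. With the numbers crossed, chosen after seeing the data, 0 genes were called in the sum of all cells and 0 in stromal or osteoblast-like cells. The 29 osteoclast-like cells of control library 1 and the 2 libraries per group limit the precision.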
